A study of Homo sapiens with 4 samples.

Results

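The genes described here make, recycle and use glutathione in a pair of human HNSCC (head and neck squamous cell carcinoma) cell lines and their cisplatin-resistant derivatives. They are SLC7A11, GCLC, GCLM, GSS, GSR, GPX1, GPX2, GPX3, GPX4 and GSTP1, chosen by name. Every probe carrying one of these names on the arrays was used, which gave 13 probes for 10 of the 43305 gene names measured. Expression was read on 4 one-colour arrays, 1 per condition. The parental lines are HN4 and HN30, for which the labels give no cisplatin. Their resistant derivatives HN4/DDP and HN30/DDP, labelled HN4_CR and HN30_CR, had been selected by raising the dose of cisplatin in steps, and the labels give 20 µM cisplatin for 48 h. Cisplatin is a platinum compound whose adducts distort DNA. Each resistant culture thus differed from its parental line in both its selection history and its current exposure, and the effects of selection and of exposure cannot be told apart. Each condition had 1 array, so no difference within a line has a replicate check.

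Glutathione is a tripeptide of glutamate, cysteine and glycine and the most abundant small thiol of human cells. Cystine enters through the exchanger of which SLC7A11 is the transporting subunit. Glutamate-cysteine ligase, made of the catalytic subunit GCLC and the modifier subunit GCLM, joins glutamate to cysteine in the rate-limiting step, and GSS adds glycine. Glutathione peroxidases spend glutathione on the reduction of peroxides, GSR restores it with NADPH, and transferases such as GSTP1 couple it to electrophiles. Glutathione also binds platinum compounds, and transcription of several of these genes is known to be driven by NRF2 through the antioxidant response element.

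Levels are given as log2 of the processed signal minus the 75th percentile of the array, so that a level of 0 is the brightness of the probe at that percentile. A level belongs to its probe, since brightness also depends on probe sequence, and levels of different genes were not set against each other. Differences are resistant minus parental on the log2 scale. The scanner SD beside them follows from the error that the scanning software attached to each spot. For bright probes it was 0.20, which comes almost wholly from a preset relative error of 0.1, and it covers neither the culture nor the hybridisation. Of the 10 genes, 9 were well above background on all 4 arrays, and GPX3 was the exception. In RNA from a whole culture, more cells expressing a gene and more RNA per cell cannot be told apart.

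The 4 arrays lay on 1 slide, no spot was saturated, and between 55.3% and 63.6% of the 60901 spots per array were well above background. Of 7 squamous epithelial markers, all were well above background on 3 arrays and 6 on the HN30/DDP array, where the keratin gene KRT6A was not. Their differences went both ways. In HN4/DDP KRT6A was at 3.32, KRT17 at 3.29, KRT14 at 2.33 and KRT5 at -4.05, with the other 3 between -0.82 and 0.58. In HN30/DDP KRT6A was at -8.44, a size that rests on its dim resistant signal, KRT5 at -1.93 and CDH1 at 1.34, with the other 4 between -0.72 and 0.22. Of 6 fibroblast markers, 2 were above background on each array, and the collagen and matrix genes COL1A2, COL3A1, LUM and DCN were dim on all of them. COL1A1, one of the measured pair, was at 1.73 in HN4/DDP and 2.43 in HN30/DDP relative to the parental lines, and PDGFRB at -0.012 and 0.63. The leukocyte markers PTPRC and CD14 were above background on all 4 arrays, and CD3E on HN30/DDP alone. Their differences in HN30/DDP were 0.16 for PTPRC, 3.49 for CD14 and 1.80 for CD3E, against -0.10, 0.56 and 0.19 in HN4/DDP. Both values of CD3E rest on dim signals, so their size is uncertain. Of 3 endothelial markers, 2 were above background on 3 arrays and all on HN30/DDP, where PECAM1 was at 1.10, VWF at 1.49 and CDH5 at -0.59, against -2.88, 2.43 and -0.62 in HN4/DDP. PECAM1 was not well above background on HN4/DDP and HN30, nor VWF on HN4. Both values of PECAM1 and that of VWF in HN4/DDP thus rest on dim signals. The part of these marker differences in the results that follow was not tested.

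The set of RefSeq promoters on GRCh38.p14 used here held 7 of the 10 genes, as the 250 bases before each annotated start, in 9 windows. It had no entry for GSS, GSR and SLC7A11, which were not searched. The core of the antioxidant response element, spelled TGACNNNGC and sought on both strands, was found in the windows of GPX2, GCLM and GSTP1. Of all 35116 windows, 10.9% held it, and of all 27305 genes 13.2% had it in a window. The 3 windows are printed because they hold the same motif while the expression of the 3 genes differed, as the values further on show. Capitals mark the match, which lies on the opposite strand in GPX2 and GCLM, and the sequences run 5′ to 3′ along the gene.
GPX2, chr14:64942746-64942995, minus strand: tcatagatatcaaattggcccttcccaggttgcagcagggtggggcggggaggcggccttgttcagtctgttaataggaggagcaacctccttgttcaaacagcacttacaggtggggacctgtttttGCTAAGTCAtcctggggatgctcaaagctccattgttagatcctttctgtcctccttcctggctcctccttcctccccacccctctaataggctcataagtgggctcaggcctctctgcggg
GCLM, chr1:93909431-93909680, minus strand: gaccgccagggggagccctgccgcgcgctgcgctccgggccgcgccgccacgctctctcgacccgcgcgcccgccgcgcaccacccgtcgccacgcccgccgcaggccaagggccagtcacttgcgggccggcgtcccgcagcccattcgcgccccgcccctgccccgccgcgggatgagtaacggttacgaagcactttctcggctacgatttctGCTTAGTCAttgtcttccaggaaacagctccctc
GSTP1, chr11:67583562-67583811, plus strand: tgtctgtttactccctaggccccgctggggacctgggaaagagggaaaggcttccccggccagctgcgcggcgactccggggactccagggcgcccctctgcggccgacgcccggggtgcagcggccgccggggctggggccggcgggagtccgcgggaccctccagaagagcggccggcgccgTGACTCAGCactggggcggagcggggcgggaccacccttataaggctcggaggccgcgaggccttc

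The match begins 122 bases before the start in GPX2, 34 in GCLM and 66 in GSTP1. The core of the ATF4 and C/EBP element, TGATGNAA, was found in none of the 7 genes, in 3.14% of all windows and in 3.89% of all genes. The short CRE core TGACG, a form of the element that CREB and ATF factors bind, was found in all 3 windows of GPX4. A pair of these windows overlaps and holds the same site. It was found in no other of the 7 genes, in 21.2% of all windows and in 24.9% of all genes. A match is a description of the letters and does not show that a factor binds there.

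GPX2 had the largest difference of the 10 genes, in the HN4 pair. GPX2 is a selenium-containing peroxidase of epithelial cells that reduces hydrogen peroxide. Its probe (A_23_P3038, chr14:65406396-65406455 on hg19) gave levels of -3.81 in HN4 and -0.68 in HN4/DDP, against -4.02 in HN30 and -4.21 in HN30/DDP. The HN4/DDP array stood apart, while the other 3 arrays lay within a narrow band near the background. The processed signals behind these levels were 35.3, 309.2, 27.4 and 25.8, each well above background. The difference in HN4/DDP was 3.13 (scanner SD 0.26), which is 8.73-fold. It ranked 135 from the top among the 23470 genes that were well above background in both HN4 and HN4/DDP, above 99.4% of them. In HN30/DDP the difference was -0.20 (scanner SD 0.33), within the scanner error, and it was -0.62 under quantile scaling and in the deposited values, past that error. The value in HN4/DDP depended on how the dim parental signal was treated, at 2.66 with a pseudocount of 16 and 1.90 with normexp background correction, and the latter no longer passed a difference of 2.

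SLC7A11, which brings in cystine, had its highest level in HN4/DDP. The levels of its probe (chr4:139085433-139085492 on hg19) were 2.46 in HN4 and 3.01 in HN4/DDP, with 1.53 in HN30 and 1.42 in HN30/DDP. Both HN4 arrays were above both HN30 arrays, so the lines differed more than the resistant and parental cells within a line. The difference in HN4/DDP was 0.55 (scanner SD 0.20), or 1.46-fold. In HN30/DDP it was -0.11, smaller than its scanner SD of 0.20, and it turned positive under quantile scaling (0.17). Between the lines, HN30 lay at -0.93 relative to HN4 and HN30/DDP at -1.59 relative to HN4/DDP.

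Glutamate-cysteine ligase was read by a probe for each of its subunits. For the catalytic subunit GCLC (chr6:53362197-53362256 on hg19), the levels were 1.89 in HN4 and 1.96 in HN4/DDP, against 2.45 in HN30 and 2.46 in HN30/DDP. As scaled, each resistant array was close to its parental array, with differences of 0.072 and 0.015 against a scanner SD of 0.20. In HN30/DDP the difference passed that SD under quantile scaling (0.40), in the deposited values (0.33) and without the trend with brightness (0.33). Both HN30 arrays were above both HN4 arrays, by 0.56 between the parental and 0.51 between the resistant lines. The modifier subunit GCLM (chr1:94352810-94352869 on hg19) gave levels of 4.09 in HN4 and 3.82 in HN4/DDP, with 3.52 in HN30 and 4.35 in HN30/DDP. HN30 had the lowest level and HN30/DDP the highest, so that the order of the lines in the parental cells was turned in the resistant cells. The difference was -0.27 (scanner SD 0.20) in HN4/DDP and 0.83 (scanner SD 0.20) in HN30/DDP, where it was 1.78-fold and above 83.4% of 23245 genes.

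GSS, the synthetase that completes the tripeptide, differed in opposite directions in the lines. Its probe (chr20:33516382-33516441 on hg19) gave levels of 4.76 in HN4 and 5.33 in HN4/DDP, against 4.90 in HN30 and 4.35 in HN30/DDP. The parental arrays lay within 0.14 of each other, less than the scanner SD, while the resistant arrays were the highest and the lowest of the 4. The difference was 0.56 in HN4/DDP and -0.55 in HN30/DDP, with a scanner SD of 0.20 in each. In HN30/DDP it was close to the median of genes of like brightness, and without the trend with brightness it was -0.010.

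GSR, the reductase that regenerates glutathione, was read by a pair of probes on chromosome 8. The probe with the higher signal gave levels of 1.88 in HN4 and 2.29 in HN4/DDP, with 1.73 in HN30 and 1.56 in HN30/DDP. The other probe gave levels of 1.22, 1.93, 1.23 and 0.81 on the same arrays. On both probes HN4/DDP was the highest array, HN30/DDP the lowest, and the parental arrays lay between with less than the scanner SD between them. The differences of the first probe were 0.41 in HN4/DDP and -0.18 in HN30/DDP. Those of the second were 0.72 and -0.43, each with a scanner SD of 0.20. The negative sign in HN30/DDP held on the first probe as scaled, and quantile scaling gave 0.12.

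GPX1, the abundant cytosolic peroxidase, was nearly level across the arrays as scaled. Its second probe in the plot of levels (chr3:49394608-49394667 on hg19) gave levels of 8.21 in HN4 and 8.33 in HN4/DDP, against 8.16 in HN30 and 8.28 in HN30/DDP. The first (chr3:49394925-49394984 on hg19) gave 6.74, 6.92, 6.70 and 6.83. Both probes were slightly higher in both resistant lines, by 0.12 in each line on the second and by 0.18 and 0.13 on the first, and none of these values passed the scanner SD of 0.20. Under quantile scaling, in the deposited values and without the trend with brightness, those of the second probe did pass it, at 0.26, 0.23 and 0.22 in HN4/DDP and 0.34, 0.33 and 0.43 in HN30/DDP. The range over the 4 arrays as scaled was 0.18 on the second probe and 0.22 on the first.

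GPX4, which reduces lipid peroxides within membranes and thereby holds back ferroptosis, was highest in HN30/DDP. Its probe (chr19:1105673-1105732 on hg19) gave levels of 5.24 in HN4 and 5.36 in HN4/DDP, with 4.98 in HN30 and 5.47 in HN30/DDP. HN30 was the lowest array, and the HN4 pair lay between the HN30 pair. The difference was 0.13 in HN4/DDP, within the scanner SD of 0.20, and 0.49 in HN30/DDP. Relative to genes of like brightness these were 0.24 and 1.03.

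GPX3, a secreted peroxidase, was near the limit of detection. The probe with the higher signal (chr5:150407032-150407091 on hg19) gave levels of -4.13 in HN4 and -5.46 in HN4/DDP, against -5.06 in HN30 and -4.33 in HN30/DDP. It was well above background on the HN4 and HN30/DDP arrays, and not on the others. With the dim signal set to the lowest one well above background on its array, HN4/DDP was 1.81-fold lower than its parental line as scaled. HN30/DDP was 1.23-fold higher by the same rule. These folds are no limits, since other processing gave smaller differences. The measured differences were -1.33 (scanner SD 0.49) and 0.73 (scanner SD 0.48), and with normexp background correction they were -0.37 and 0.052. The other probe (chr5:150407859-150407918 on hg19) was not well above background on any array.

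GSTP1, the transferase that conjugates glutathione to drugs and other electrophiles, was lowest in HN30/DDP. Its probe (chr11:67354050-67354109 on hg19) was printed in 10 spots per array and gave levels of 8.93 in HN4 and 8.96 in HN4/DDP, with 8.81 in HN30 and 8.43 in HN30/DDP. The SD among the 10 spots was between 0.018 and 0.033, so the placement of spots within an array added little. The difference was 0.030 in HN4/DDP, within the scanner SD of 0.20, and -0.38 in HN30/DDP. The plot of levels by array shows the 13 probes together.

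**Figure D1:**
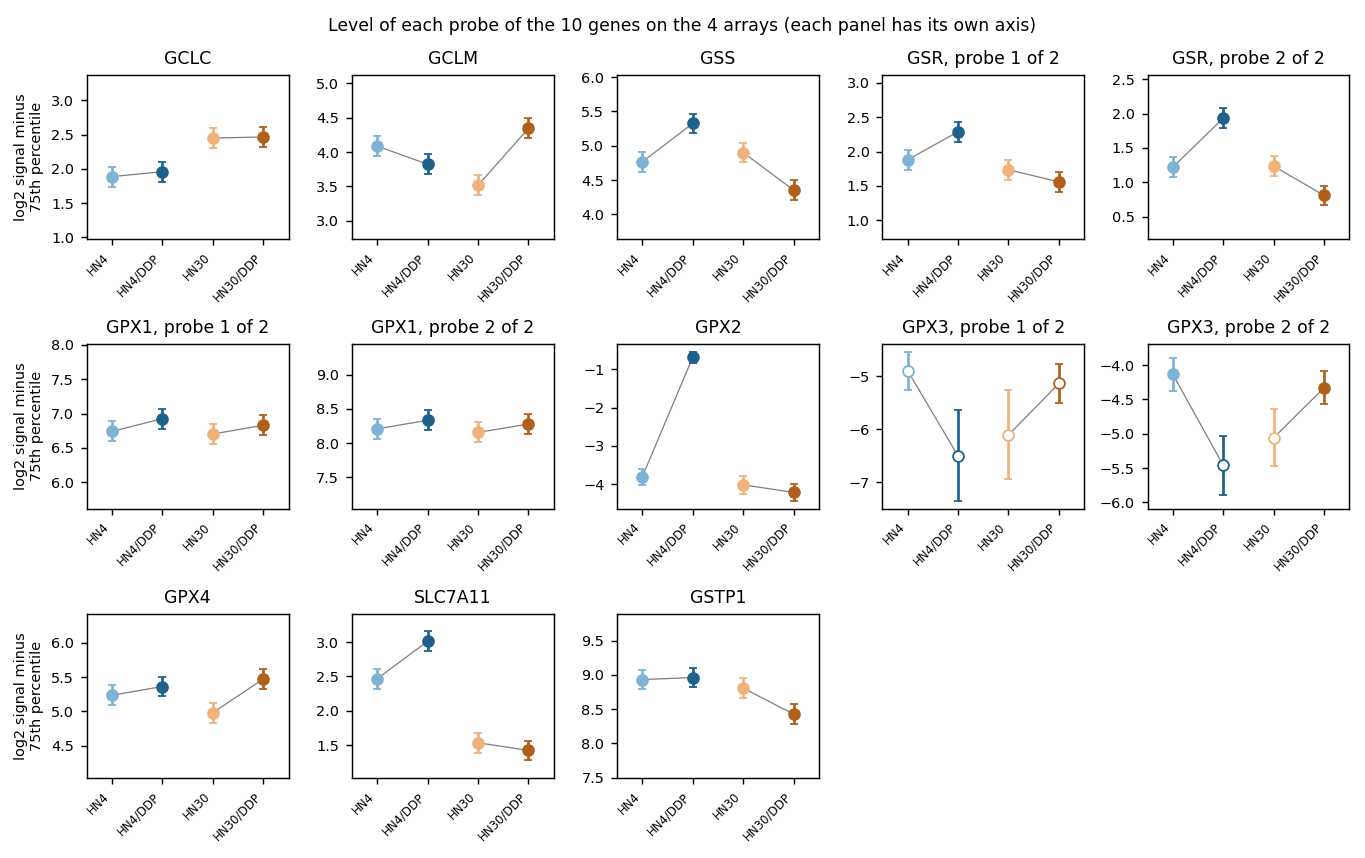
Level of each probe of the 10 genes (log2 signal minus the 75th percentile of the array, vertical axis, a separate scale in each panel) on the parental and resistant arrays of both lines. Bars are the scanner SD of a level, lines join the arrays of a line, and open circles are signals not well above background; GPX2 stands at -0.68 in HN4/DDP and between -4.21 and -3.81 on the other arrays.

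Set side by side, the 3 genes with the antioxidant response core in the printed windows had unlike differences. GPX2 was at 3.13 in HN4/DDP and -0.20 in HN30/DDP, GCLM at -0.27 and 0.83, and GSTP1 at 0.030 and -0.38. GCLM and GSTP1 thus had differences of opposite sign in each line, with the one of GSTP1 in HN4/DDP within the scanner error. Under quantile scaling, in the deposited values and without the trend with brightness, those of GSTP1 in HN30/DDP (-0.10, -0.17 and -0.070) and of GCLM in HN4/DDP (-0.17, -0.17 and -0.19) were also within it.

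Counting the genes past a fixed difference left 1 of the 10 higher in HN4/DDP by over 2, which was GPX2. Of all genes well above background on that array, 3.80% passed the same limit. None of the 10 was lower by over 2 in HN4/DDP, where 2.38% of all genes were. In HN30/DDP none was higher by over 2, against 8.58% of all genes, and none was lower by over 2, against 3.25%. At a difference of 1, GPX2 was the gene higher in HN4/DDP (all genes, 9.79%) and GPX3 the one lower (all genes, 9.36%). In HN30/DDP none of the 10 passed 1 upwards (all genes, 20.3%) or downwards (all genes, 15.7%). Under quantile scaling, in the deposited values and without the trend with brightness, GCLM and GPX4 passed 1 upwards there. Counts this small, out of 10, do not set these genes apart from all genes.

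The limma fit of resistant against parental arrays over both lines, with the cell line as a block, had 1 residual degree of freedom. It called 0 of the 10 genes, and 0.00% of the 29521 genes tested, at a Benjamini-Hochberg adjusted p under 0.05. At an unadjusted p under 0.05 it had 0 of the 10 and 8.59% of all genes. The smallest adjusted p of the 10 in this limma fit was 0.709, for GPX2, with a difference over both lines of 1.47 (SE 0.87). The other adjusted p-values from limma ranged up to 0.999, and such a fit cannot show that a gene did not differ.

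As scaled, the difference in 7 of the 10 genes had opposite signs in HN4/DDP and HN30/DDP, namely GCLM, GSS, GSR, GPX2, GPX3, SLC7A11 and GSTP1. Of 25662 genes with a signal well above background on 1 array or both of each pair, 42.2% had opposite signs, and the 2 shares were not tested against each other. Under quantile scaling, in the deposited values and without the trend with brightness, 5 of the 10 had opposite signs, and under median scaling 8. In GCLM, GSS and GPX3 both differences passed the scanner SD as scaled, but in none of the 3 under all 8 alternatives. GCLM and GSS lost it under quantile scaling, in the deposited values and without the trend with brightness, and GPX3 under normexp, among others. Under quantile scaling and in the deposited values, GPX2 was the only gene of the 10 with both past it. For GSR and SLC7A11 the opposition was lost under quantile scaling, in the deposited values and without the trend with brightness, and under median scaling GCLC gained it. Under median scaling GSR and SLC7A11 had opposite differences that both passed the scanner SD, as GSR did with the mean of its probes. Whether the lines differed was not tested for any gene. The median over the 10 genes was 0.13 in HN4/DDP and -0.049 in HN30/DDP. Over the 9 that both arrays of a pair measured above background it was 0.13 and -0.11, and over all genes so measured -0.093 and -0.067. Under quantile scaling, in the deposited values and without the trend with brightness, the median of the 10 in HN30/DDP was positive, at 0.26, 0.21 and 0.23. In 8 of the 10 genes the difference was within 1 in both lines, and in 6 under quantile scaling, in the deposited values and without the trend with brightness.

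**Figure D2:**
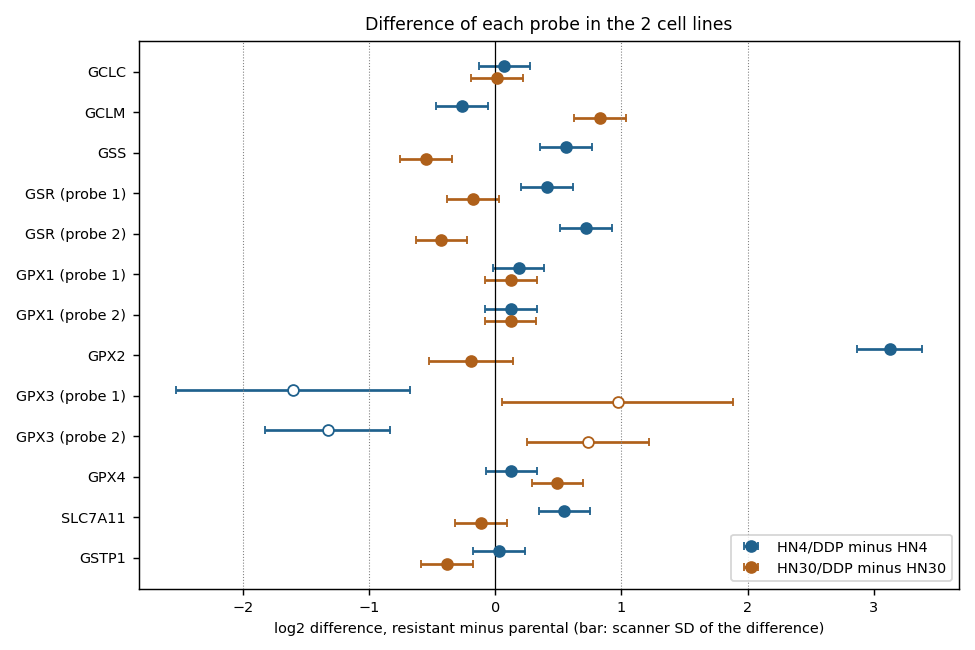
Log2 difference (horizontal axis, resistant minus parental) of each of the 13 probes in the HN4 and HN30 pairs, with bars for the scanner SD, open circles where an array of the pair was not well above background, and dotted lines at 1 and 2 in each direction. GPX2 lies at 3.13 in HN4/DDP, and GCLM, GSS and GPX3 have points on opposite sides of 0 with bars that do not reach it, as does the second probe of GSR.

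The HN30/DDP array differed from HN30 in a way that followed brightness. The brightest 10% of genes had a median difference of -0.43 in HN30/DDP and -0.10 in HN4/DDP. In that pair 8 of the 10 genes were brighter than at least 68.4% of genes, and their differences in HN30/DDP are given here also relative to genes of like mean level. On that scale GCLM was at 1.35 and GPX4 at 1.03, GPX1 at 0.43 and GCLC at 0.33, while GSR was at 0.14, SLC7A11 at 0.076, GSS at -0.010 and GSTP1 at -0.070. GCLM and GPX4 were thus the genes of the 10 that lay furthest above their neighbours in HN30/DDP. The part of the brightness trend in these values was not tested beyond this subtraction.

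**Figure D3:**
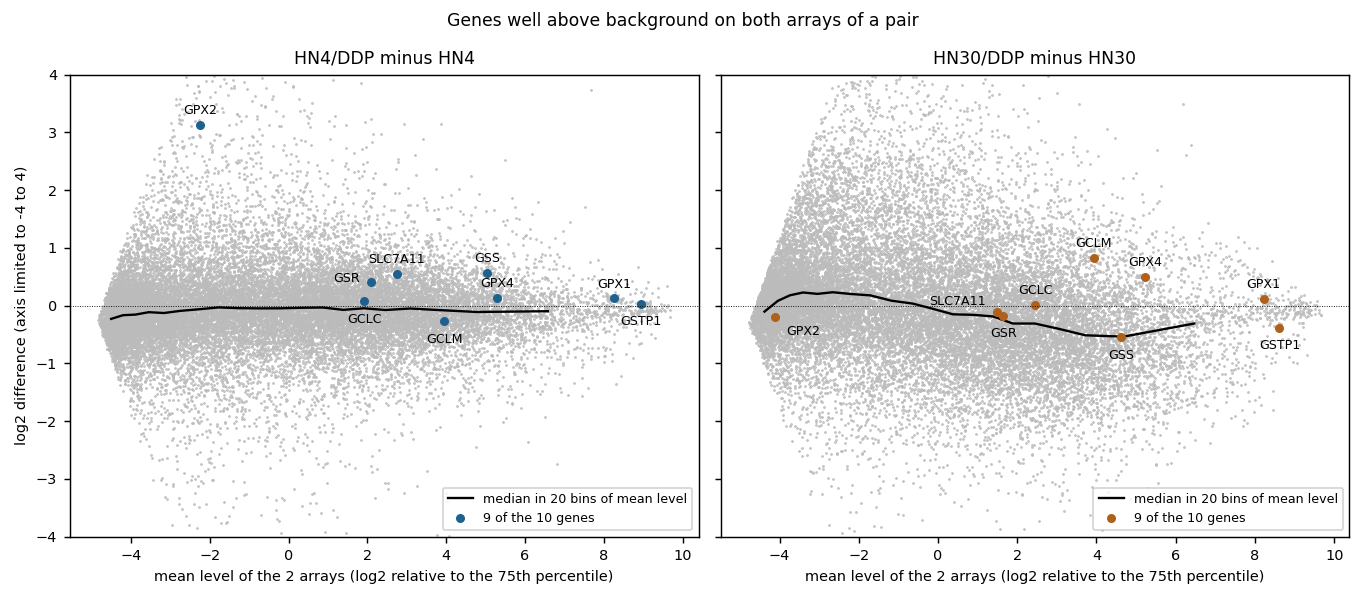
Log2 difference (vertical axis, limited to -4 to 4) against the mean level of both arrays of a pair (horizontal axis, log2 relative to the 75th percentile) for genes well above background on both arrays, with the median in 20 bins of level as a line and 9 of the 10 genes named. In the HN30 pair the line falls below 0 among bright genes, where GSS (-0.55) lies on it and GCLM (0.83) and GPX4 (0.49) lie above it.

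Over 8 other ways of processing, the sign of the difference was kept in every one for each of the 10 genes in HN4/DDP. In HN30/DDP it was kept in every one for 7 genes. For GCLC it was kept in 7 of the 8, with -0.090 under median scaling. For GSR and SLC7A11 it was kept in 5 of the 8. In HN4/DDP the value for GSS stayed between 0.56 and 0.71 and that for SLC7A11 between 0.53 and 0.63. In HN30/DDP the value for GCLM ranged from 0.73 to 1.35 and that for GPX4 from 0.39 to 1.10.

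**Figure D4:**
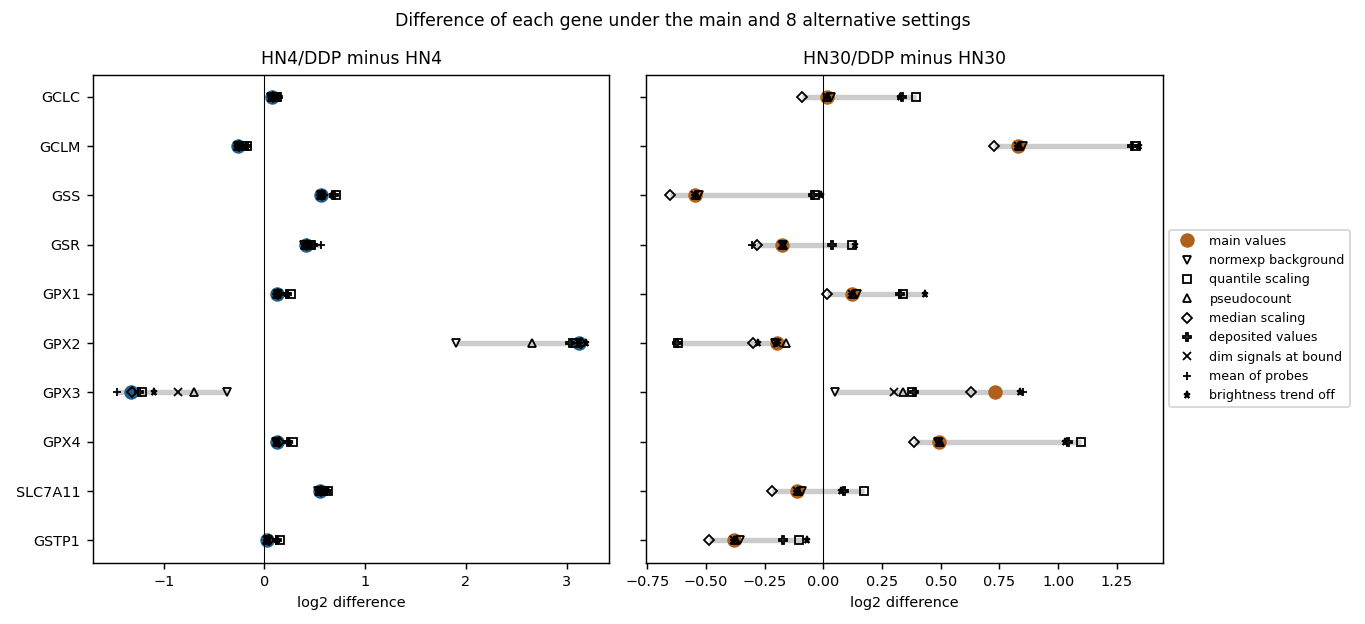
Log2 difference (horizontal axis) of each of the 10 genes as reported (filled circles) and under 8 alternative ways of processing (other marks, with a grey bar over their range), by line. GPX2 in HN4/DDP runs from 1.90 to 3.19, and in HN30/DDP the ranges of GCLC, GSR and SLC7A11 cross 0.

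Beyond the 10 genes, 103 genes of 10 groups around glutathione were measured. In each pair 90 of the 103 were well above background on at least 1 array. In HN4/DDP 7 of them were higher by over 2 (all genes, 3.80%) and 0 lower (all genes, 2.38%), and in HN30/DDP 5 were higher (all genes, 8.58%) and 2 lower (all genes, 3.25%). Some fell short of 2 under at least 1 alternative. These were GSTA4 and GSTM4 in HN4/DDP, and CREB5, GSTM2, SLC40A1 and, among the lower, GLRX2 in HN30/DDP. Their median difference was -0.043 in HN4/DDP and -0.10 in HN30/DDP. Over those above background in parental and resistant cells alike, it was -0.018 and -0.28, the latter -0.055 relative to genes of like brightness. The genes higher by over 1 in both lines were GLRX, TXNIP, GSTA4, GSTM1, GSTM2, GSTM4, ABCC2 and CREB5. Of all genes that passed the background limit in HN4/DDP and also in HN30/DDP, 4.72% were so. GLRX, TXNIP and GSTA4 stayed above 1 in both lines under all 8 alternatives, and the other 5 fell short of it in a line or in both under at least 1 of them.

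Among 6 genes of cysteine and glutamate supply, the medians were -0.38 in HN4/DDP and 0.11 in HN30/DDP. Over the 5 measured above background in parental and resistant cells alike, they were -0.19 and -0.64. CBS, which condenses serine and homocysteine on the route to cysteine, had levels of 5.15 in HN4 and 3.73 in HN4/DDP, against 4.15 in HN30 and 5.30 in HN30/DDP. Its difference was -1.42 in HN4/DDP and 1.16 in HN30/DDP, with a scanner SD of 0.20, so that the lines changed places between parental and resistant cells as they did for GCLM. SLC3A2, the heavy chain that partners SLC7A11 in the exchanger, was at -0.57 in HN4/DDP and -1.16 in HN30/DDP; it was chosen after its values were seen.

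Of 13 genes of glutathione breakdown and salvage, 1 was higher by over 2 in HN4/DDP (all genes, 3.80%) and 1 lower by over 2 in HN30/DDP (all genes, 3.25%), and counts of 1 do not set the group apart. The former was CHAC1, at 2.32 in HN4/DDP and 0.56 in HN30/DDP, named after its values were seen. The latter was CHAC2, at levels of 0.95 in HN4 and 0.55 in HN4/DDP, with 1.81 in HN30 and -1.44 in HN30/DDP. Both encode gamma-glutamylcyclotransferases that cleave glutathione. The difference of CHAC2 was -3.24 in HN30/DDP and -0.40 in HN4/DDP.

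Of 19 other glutathione transferases measured, 5 were higher by over 1 in HN4/DDP (all genes, 9.79%), and in HN30/DDP 4 were higher (all genes, 20.3%) and 3 lower (all genes, 15.7%) by that much. GSTA4, which conjugates products of lipid peroxidation, had levels of -3.31 in HN4 and -1.08 in HN4/DDP, against -3.96 in HN30 and -0.12 in HN30/DDP. Both resistant arrays were above both parental arrays, by 2.23 and 3.84, and its other probe gave 2.16 and 3.46. The lowest values of GSTA4 over the 8 alternatives were 1.35 and 2.35. GSTM4 was at 2.22 in HN4/DDP and 1.94 in HN30/DDP. Over the 8 alternatives its lowest values were 0.93 and 0.69. GSTM1 was at 1.10 in HN30/DDP. In HN4 its signal was not well above background. With that signal set to the lowest one well above background, GSTM1 was 3.11-fold higher in HN4/DDP as scaled. Its lowest log2 differences over the 8 alternatives were 0.59 in HN4/DDP and 0.33 in HN30/DDP. For GSTM2, a further member of the mu class, they were 0.22 and 0.43. GSTM2 was dim in both parental lines. By the same rule its signals were 1.32-fold and 1.88-fold higher in the resistant lines as scaled, and its second probe gave 0.28 and 0.35. The GSTM genes are close copies of each other, and how far their probes tell them apart was not tested.

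In the thioredoxin and glutaredoxin group, which shares substrates with glutathione, the median of the 11 genes was 0.27 in HN4/DDP and -0.62 in HN30/DDP, the latter -0.084 relative to genes of like brightness. GLRX, the cytosolic glutaredoxin that removes glutathione from proteins, had levels of 1.50 in HN4 and 4.04 in HN4/DDP, with 1.50 in HN30 and 3.08 in HN30/DDP. The parental arrays were level and both resistant arrays higher, by 2.54 and 1.58 with a scanner SD of 0.20. TXNIP, an inhibitor of thioredoxin, had levels of 5.02 in HN4 and 6.30 in HN4/DDP, against 4.44 in HN30 and 7.93 in HN30/DDP, with differences of 1.29 and 3.49. GLRX2, the mitochondrial glutaredoxin, was lower by over 2 in HN30/DDP at -2.10 and stood at 0.27 in HN4/DDP. Without the trend with brightness it was at -1.79 in HN30/DDP, no longer past 2. TXNRD1, a thioredoxin reductase, was at 1.44 in HN4/DDP and 0.044 in HN30/DDP. GLRX2 and TXNRD1 were named after their values were seen.

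Of all genes that both arrays of a pair measured above background, 57.9% had a negative difference in HN4/DDP and 53.8% in HN30/DDP. Of 11 other peroxidases and catalase, 9 had negative differences in HN30/DDP, with a median of -0.65 (-0.44 under quantile scaling), and 5 in HN4/DDP, with a median of 0.089. Of the 9 of them so measured, 8 were negative in HN30/DDP, with a median of -0.75, and 5 in HN4/DDP, with a median of -0.16. Among the 11, PRDX6 and GPX6, which was dim on every array, were negative in HN30/DDP as scaled but turned positive under at least 1 of the alternatives, and 1 of 3 probes of PRDX4 was positive at 0.31; these 3 genes were picked out after their values were seen. The 8 genes of NADPH supply, on which GSR depends, had medians of 0.19 in HN4/DDP and 0.039 in HN30/DDP, the latter 0.33 under quantile scaling, 0.28 in the deposited values and 0.32 without the trend with brightness. As scaled, 0 of the 8 passed a difference of 1 in HN4/DDP, upwards (all genes, 9.79%) or downwards (9.36%), or in HN30/DDP (20.3% and 15.7%). All 7 genes of the machinery that inserts selenocysteine, the residue at the active site of GPX1 to GPX4, had negative differences in HN30/DDP, with a median of -0.61, and 5 of the 7 had them in HN4/DDP, with a median of -0.13. Relative to genes of like brightness the median in HN30/DDP was -0.44 for the selenocysteine group. The differences of its 7 genes in HN30/DDP lay between -1.47 and -0.13, and each stayed negative under all 8 alternatives.

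Among 6 genes that export glutathione conjugates, ABCC2 had the largest difference in HN4/DDP of all listed genes well above background on both arrays. Its levels were -3.49 in HN4 and 2.98 in HN4/DDP, with -3.94 in HN30 and -2.21 in HN30/DDP, with differences of 6.47 and 1.73. Its other probe gave 0.85 and 0.26, so the probes disagreed in size, and the lowest values over the 8 alternatives were 3.66 and 0.81. The ferroptosis group of 13 genes had medians of -0.16 in HN4/DDP and -0.050 in HN30/DDP, the latter 0.22 under quantile scaling. By over 1, 2 were higher in HN4/DDP (all genes, 9.79%) and 0 lower (9.36%). In HN30/DDP 1 was higher (20.3%) and 3 lower (15.7%). In this group HMOX1, the heme oxygenase, was at 2.72 in HN4/DDP and 0.52 in HN30/DDP. The iron exporter SLC40A1 was not well above background on either HN4 array or on HN30. With the HN30 signal set to the lowest one well above background, SLC40A1 was 4.32-fold higher in HN30/DDP as scaled. Its lowest log2 difference over the 8 alternatives in HN30/DDP was 1.20. HMOX1 and SLC40A1 were named after their values were seen. Among 9 regulators, CREB5 was dim in both parental lines. By the same rule CREB5 was 20.7-fold higher in HN4/DDP and 2.03-fold in HN30/DDP, as the signals were scaled here. Its lowest log2 differences over the 8 alternatives were 2.76 and 0.60. NFE2L2, which encodes NRF2, was not well above background on any array by its probe, and this bounds no more than that probe.

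**Figure D5:**
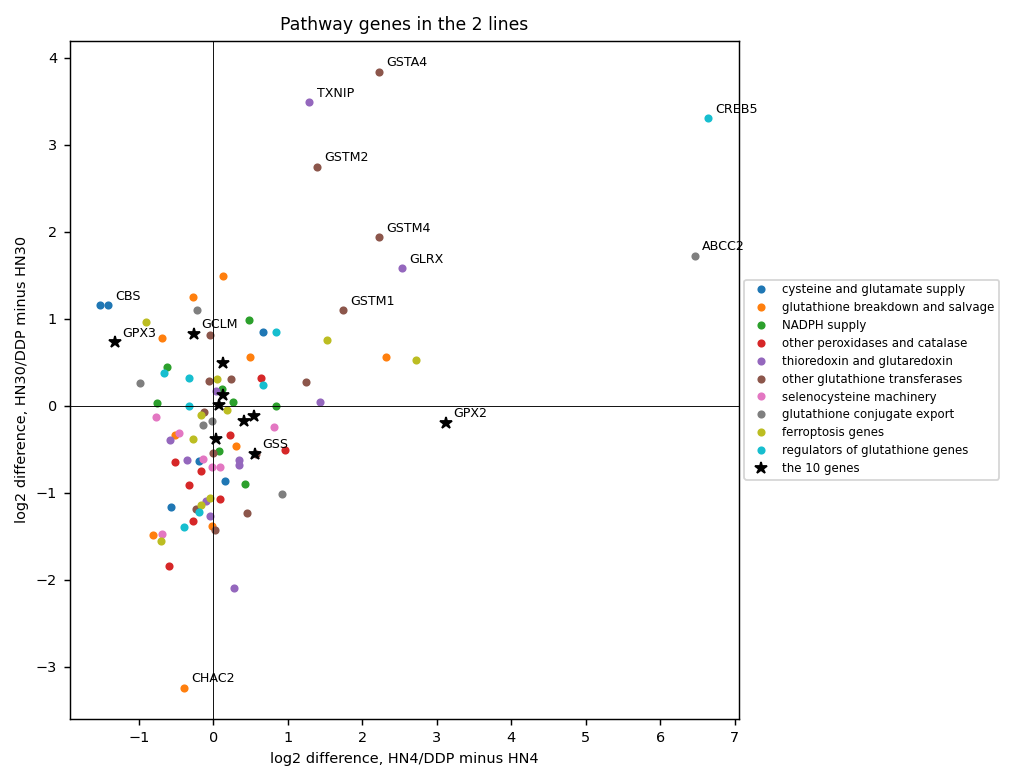
Log2 differences of the listed genes around glutathione, by group, and of the 10 genes (stars), in HN4/DDP (horizontal axis) and HN30/DDP (vertical axis), each resistant minus parental, with genes left out that were dim on both arrays of a pair. GSTA4 (2.23 and 3.84), TXNIP (1.29 and 3.49), GLRX (2.54 and 1.58) and GSTM4 (2.22 and 1.94) lie to the upper right, and GPX2 (3.13 and -0.20) near the horizontal axis.

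The genes whose profile over the 4 arrays was most like that of GCLM and SLC7A11 were sought among the 22148 other genes well above background on all 4 arrays, by the Euclidean distance between profiles centred on their own mean. For GCLM the nearest were AB384543 at a distance of 0.036, the probe A_33_P3278714 at 0.048 and the collagen gene COL20A1 at 0.059. COL20A1 had differences of -0.30 in HN4/DDP and 0.75 in HN30/DDP. For SLC7A11 they were lnc-MRPL48-1 at 0.15, RASAL2-AS1 at 0.15 and LOC729887 at 0.17. LOC729887 had differences of 0.38 in HN4/DDP and -0.0074 in HN30/DDP. None of these belongs to the glutathione groups. All these distances were below 0.20, the scanner SD of a difference for bright probes, so which genes came nearest was within that error. All but LOC729887 had levels below 0 on all 4 arrays. Whether the genes are related was not tested.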

How the data were processed

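RNA of 4 cell cultures was hybridised in Cy3 to Agilent human 60K arrays. The authors deposited scanner output with the processed intensity of each spot, made by Agilent Feature Extraction 10.7.1.1, which subtracted the background, removed spatial trends and replaced very low signals. A log2 table of the same arrays, also deposited, has identical sorted values in every column, with a median of 4.65, as quantile scaling leaves them. It served as an alternative. The other deposited columns used mark spots that are outliers, saturated or well above background. No other normalization by the authors is given in the sources used here.

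Here, log2 intensity was taken, outlier spots were left out, each array's 75th percentile was taken off, and spots of a probe were averaged. Of several probes, the one with the highest mean level stood for the gene. Counts of higher genes took differences above 2 with the resistant signal well above background, and counts of lower genes took differences below -2 with the parental signal so. For folds against a dim signal, that signal was set to the lowest log2 signal well above background on its array, between -4.99 and -4.63. Such a fold belongs to this scaling, and other processing gave smaller differences. limma 3.58.1 in R 4.3.3 fitted all 4 arrays, blocked by cell line, with a trend in eBayes, and was tested on simulated data. Python 3.11.15 with pandas 2.3.3 and numpy 2.4.6 did the rest. The number of arrays limits the precision, and the 4 arrays come from 1 sample per condition.

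The 10 genes, the lists and the alternatives were chosen with earlier results of these data known. Genes outside the 10 were named if they differed by over 1 in the same direction in both lines and were well above background on the higher array of each pair, if they had the largest rise or fall of a line among listed genes above background on both arrays, or if they were among the 3 nearest profiles to GCLM or SLC7A11. Marker genes are also named, except 1 that is not reported here. All 13 probes were matched by accession to the same RefSeq symbol, as were 100 of 103 listed genes, and GSTA1 was not found on the array by that name. Probe positions are those of the files on hg19, promoter positions those of RefSeq on GRCh38.p14. Protein sequences were not used here.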

Additional observations from a re-analysis of the deposited data

Results flagged for a closer look

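In 7 of the 10 genes, and in CBS, the only array of a resistant line was above its parental array and that of the other line below it. CBS was picked by size, and most other genes so picked had to differ in the same direction in both lines. In GPX2, GSR, SLC7A11 and GSTP1 the difference in a line was within its scanner SD as scaled. Opposite signs were common, at 42.2% of 25662 genes. No test of this was possible with these arrays. Given as the difference in HN4/DDP minus the difference in HN30/DDP, it was 3.32 for GPX2, 1.11 for GSS, 0.66 for SLC7A11, 0.59 for GSR and 0.41 for GSTP1. It was -1.10 for GCLM, -2.06 for GPX3 and -2.57 for CBS. Its scanner SD was 0.29 for bright genes, 0.42 for GPX2 and 0.69 for GPX3, whose signal was not well above background on 2 of the 4 arrays. The difference itself was not tested. For GSR and SLC7A11 the sign in HN30/DDP turned under 3 of the 8 alternatives.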

How the results depend on the processing

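Of 160 differences of the 10 genes under 8 alternatives, 131 stayed within the scanner SD of the reported value. Part of these could not move. The mean of all probes leaves a gene with a single probe unchanged. Setting dim signals to the lowest one well above background changed GPX3 alone. The 131 thus overstate how stable the values were. The differences that moved past the scanner SD lay mostly in HN30/DDP. There quantile scaling gave 0.40 for GCLC, 1.33 for GCLM, -0.035 for GSS, 0.12 for GSR, 0.34 for GPX1, -0.62 for GPX2, 1.10 for GPX4, 0.17 for SLC7A11 and -0.10 for GSTP1. The deposited values gave 0.33 for GCLC, 1.31 for GCLM, -0.044 for GSS, 0.038 for GSR, 0.33 for GPX1, -0.62 for GPX2, 1.04 for GPX4 and -0.17 for GSTP1. Without the trend with brightness, an alternative chosen after seeing the data, the values were 0.33 for GCLC, 1.35 for GCLM, -0.010 for GSS, 0.14 for GSR, 0.43 for GPX1, 1.03 for GPX4 and -0.070 for GSTP1. These 3 alternatives level the brightness trend by construction. Normexp gave 0.052 for GPX3. In HN4/DDP, normexp gave 1.90 for GPX2 and -0.37 for GPX3, and a pseudocount of 16 gave 2.66 and -0.70, since both compress dim signals.

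Of 72 counts of the 10 genes past a difference of 2 or 1, 64 were equal to the reported count. The reported counts were all 0 or 1, so this equality says little about stability. The counts at 1 under each alternative were added after seeing the data. With normexp 0 genes were higher by over 2 in HN4/DDP. At a difference of 1 there was 1 gene lower there, GPX3, and 0 with normexp, with the pseudocount or with dim signals raised to the detection limit. In HN30/DDP 2 genes, GCLM and GPX4, were higher by over 1 under quantile scaling, in the deposited values and without the trend with brightness, against 0 as reported. Of 20 medians of the 10 genes, 4 moved by more than the median scanner SD of a difference and 4 changed sign. In HN4/DDP the mean in place of the median was 0.34. In HN30/DDP the median was 0.26 under quantile scaling, 0.21 in the deposited values and 0.23 without the trend, and the mean was 0.078. Of 200 medians of the lists, 39 moved by more than that SD and 37 changed sign. Scaling by the median shifted all genes in HN30/DDP by -0.11. limma called 0 genes under each of 5 other settings, with 1957 to 3261 genes at an unadjusted p under 0.05. No paired analysis was possible because each condition has 1 replicate, so far as pairing by replicate number goes; the limma fit pairs the arrays by cell line.

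Signal over background limits GPX3, GPX2 outside HN4/DDP and the GSTM genes. No replicate of a condition exists, so the difference between cultures of the same line was not measured, and leaving out an array leaves its line without a pair and the blocked fit with no residual degree of freedom.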
